A study of Mus musculus with 8 samples.

Results

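The genes described here were 42 mouse nuclear receptor genes of 21938 protein-coding genes, named by symbol in a rule that used no binding value. The set covered thyroid hormone, retinoic acid, PPAR, liver X, farnesoid X, xenobiotic, HNF4, retinoid X, testicular, COUP-TF, estrogen and estrogen-related receptors, the NR4A and NR5A families and the atypical receptors Nr0b1 and Nr0b2. The glucocorticoid receptor gene itself was not in the set. By general knowledge of hepatocytes, and not by these data, 21 members were listed as liver-expressed and 21 as other receptors. GR binding near each gene was read as sites, where a site was a stretch of overlapping GR peaks from any of 6 libraries, centred within 50 kb of the gene start. Of 51431 GR sites in all, 332 were centred near a member, 296 of them near liver-expressed receptors and 36 near other receptors, and no site was near 2 members.

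ChIP-seq of the glucocorticoid receptor (GR) was done in livers of adult male C57BL/6J mice from 3 groups with 2 libraries each. The control mice (ctrl.) had free access to food, which was limited to the night in the final week. The calorically restricted mice (cal. res.) received less food, given at lights off. The third group was fed at night only while it was given corticosterone (CORT), the main glucocorticoid of the mouse. The paper took the livers for ChIP at lights off, the daily peak of glucocorticoid secretion. FOXO1, a forkhead factor that insulin keeps out of the nucleus, was profiled in 2 cal. res. libraries, which the authors merged before peak calling, so that FOXO1 values have no replicate spread. The comparison of the groups asks whether GR occupies different sites under restriction than under feeding with or without added hormone. All mice received regular chow, the chromatin came from whole snap-frozen liver, and the labels give no vehicle treatment for the ctrl. libraries. In whole liver, fewer cells of a type and less binding per cell cannot be told apart.

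Nuclear receptors are transcription factors that bind DNA through paired zinc fingers, and most are switched by small lipophilic ligands such as steroids, bile acids, fatty acids or thyroid hormone. In liver they set the output of bile acid, lipid, drug and glucose metabolism, and many act as heterodimers with RXR on repeats of a shared half-site. GR is a member of the same superfamily, and its own DNA element is an inverted repeat. Coactivators such as Ncoa2 and corepressors such as Ncor1 are recruited by most of these receptors, and 14 such genes serve below as a list for comparison.

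The GR peak lists differed in length, from 12458 merged regions in ctrl. replicate 2 to 39136 in CORT replicate 2, with 36234 in ctrl. replicate 1. Read depth is not given by the lists. The names of the libraries had 2 styles, one shared by ctrl. replicate 1 and both CORT libraries and the other by ctrl. replicate 2 and both cal. res. libraries. The labels do not say whether the style marks a batch, and cal. res. and CORT cannot be told apart from it. A site counted as held by a group where each of its libraries had a peak there, which for 2 libraries makes the shorter list decide.

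Liver-expressed receptor genes lay near many GR sites, and the other receptors near few. The median number of sites per gene was 15 among liver-expressed receptors, 1 among other receptors, 6.5 among the coregulators and 3 over all protein-coding genes. Ppara, the fatty acid sensor of the fasted liver, had the most sites with 31, followed by Rxra, the common heterodimer partner, with 30. Nr1i3 (CAR, a xenobiotic receptor) and Nr5a2 (LRH-1, an activator of bile acid synthesis) had 20 each, Nr1h4 (FXR, the bile acid receptor) 18 and Rara, a retinoic acid receptor, 17. Hnf4a, a master factor of hepatocyte identity, and Nr2f6 had 16 each, and Thra, Esr1 and Esrra had 15 each. At the lower end of the liver-expressed list, Nr2c2 (TR4) had 1 site, Nr1h2 (LXR beta) 4, Rxrb 5 and Nr2f2 (COUP-TFII) 6. These counts take in every site with a peak in any library, so long lists add to them. Rxra had a peak at 24 sites in ctrl. replicate 1 and at 24 in CORT replicate 2. It had 3 in ctrl. replicate 2 and 5 and 4 in cal. res. Sites held by all 3 groups numbered 7 for Ppara and 3 for Rxra, and the Nr2c2 site had a peak in all 6 libraries.

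Among the other receptors, Nr4a1, an immediate-early orphan receptor, had 7 sites and Rarg 6, Nr3c2, the mineralocorticoid receptor, had 3, and the rest had 2 or fewer. No site was found within 50 kb of Rarb, Vdr, Hnf4g, Nr2e1 and Nr0b1. Thus 37 of 42 members (88.1%) had a GR site, against 73.2% of all protein-coding genes. The 16 of 21 other receptors with a site (76.2%) were close to that background, while the 21 of 21 liver-expressed receptors were above it.

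**Figure D1:**
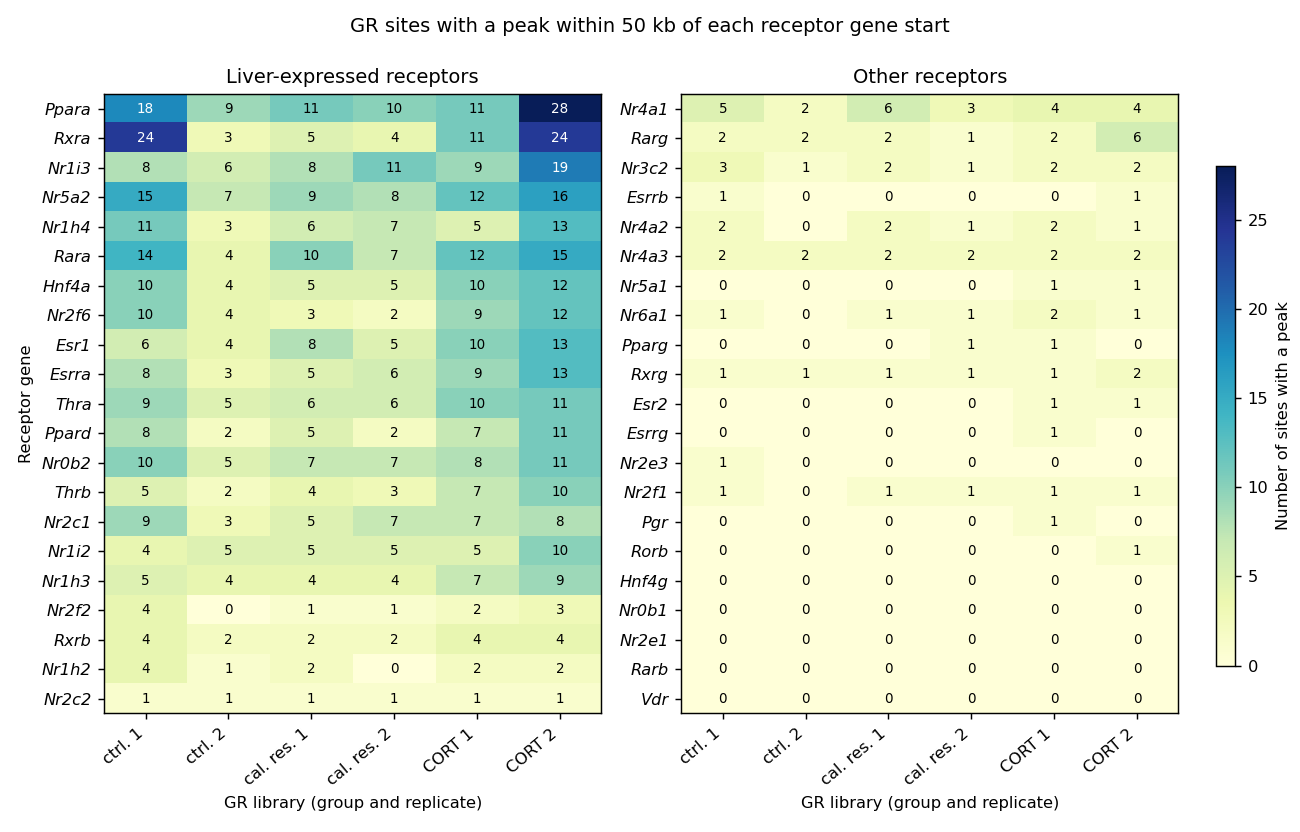
Number of GR sites with a peak within 50 kb of the gene start, for each receptor gene (vertical axis) in each of the 6 GR libraries (horizontal axis), with the number in each cell and as colour. Liver-expressed receptors are on the left and other receptors on the right, each ordered by the number of sites over all libraries. Ppara ranges from 9 in ctrl. replicate 2 to 28 in CORT replicate 2, and Nr2c2 has its 1 site in all 6 libraries.

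Neighbouring genes share these windows. Of the 332 sites, 238 had a member as the nearest protein-coding gene start. Every site of Rxra and Nr5a2 had that gene as the nearest. For Thra, Esrra and Nr1i3, which lie in dense gene neighbourhoods, this was so for 2 of 15, 2 of 15 and 3 of 20 sites. By annotation, 169 of the sites were centred in introns, 79 within 1 kb of a transcript start of some gene, 63 between genes, 13 in UTRs and 8 in coding or other exons.

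For each member, the site held by all 3 groups with the highest mean rank was taken, where the rank is the within-list percentile of fold enrichment (the peak height over the local background, as the peak caller gives it), so that 100 is the top of that library's own list. The sequences around the peak summits of 5 of these sites, of a FOXO1 row and of an Nr4a1 site described below are printed. They show which motif letters lie within 50 bases of each summit, also where these are near the end of a line. Each line is the summit base with 50 bases on either side, on the plus strand of mm10. Capitals mark matches on either strand to the GR element (2 inverted GNACA half-sites 3 bases apart), the GR half-site AGAACA, the receptor half-site AGGTCA, the STAT motif TTCNNNGAA or the FOX core TGTTTAC. The Nr1i2 line was chosen by a stated rule, and the other lines after their values were seen.
Nr0b2, chr4:133563352-133563452: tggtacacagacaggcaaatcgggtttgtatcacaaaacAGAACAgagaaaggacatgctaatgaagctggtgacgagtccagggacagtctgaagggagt
Nr1i2, chr16:38287916-38288016: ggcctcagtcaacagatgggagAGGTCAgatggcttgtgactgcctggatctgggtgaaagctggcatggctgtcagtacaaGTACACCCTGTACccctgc
Ppara, chr15:85732644-85732744: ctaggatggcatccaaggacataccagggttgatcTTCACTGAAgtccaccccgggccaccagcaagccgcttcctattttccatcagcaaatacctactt
Nr1i3, chr1:171204403-171204503: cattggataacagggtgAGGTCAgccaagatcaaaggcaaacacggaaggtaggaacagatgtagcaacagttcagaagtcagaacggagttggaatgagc
Hnf4a, chr2:163539640-163539740: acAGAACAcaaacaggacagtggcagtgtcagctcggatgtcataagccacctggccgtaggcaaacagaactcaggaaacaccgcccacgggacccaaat
Nr1i3 region at Apoa2, FOXO1 summit, chr1:171224918-171225018: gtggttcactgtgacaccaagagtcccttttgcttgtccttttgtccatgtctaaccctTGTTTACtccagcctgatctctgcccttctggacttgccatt
Nr4a1 intron, chr15:101260534-101260634: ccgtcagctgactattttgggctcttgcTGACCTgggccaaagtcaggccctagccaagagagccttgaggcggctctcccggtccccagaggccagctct

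Nr0b2 encodes SHP, a corepressor-like receptor without a DNA-binding domain that represses bile acid synthesis. Its highest site lay 10.02 kb downstream of the gene start, between genes, at chr4:133562854-133563931. Fold enrichment there was 57.8 and 15.8 (ctrl.), 68.3 and 53.2 (cal. res.) and 66.03 and 83.1 (CORT). The percentiles were 99.8 and 98.2 (ctrl.), 99.7 and 99.6 (cal. res.) and 99.8 and 99.8 (CORT), so the site was near the top of every list, and the lower fold of ctrl. replicate 2 went with the shortest list. A GR half-site lies in its summit window. A FOXO1 row (1 line of the FOXO1 list, with its own summit) overlapped the site, at a fold of 11.3.

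Nr1i2 encodes PXR, a sensor of drugs and bile acids. Its highest site covered 4021 bases of its own intron, 8.36 kb from the start, and ranked at 98.9 and 95.6 (ctrl.), 99.5 and 99.4 (cal. res.) and 98.1 and 99.6 (CORT). The summit window printed above holds both a full GR element and a receptor half-site. Of the 72 member sites held by all 3 groups, this was the 1 window with a GR element. All 10 sites near Nr1i2 had this gene as their nearest start, and 4 of them were held by all 3 groups.

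The highest Ppara site spanned the gene's own start over 5699 bases. It ranked at 99.1 and 91.2 (ctrl.), 97.0 and 97.1 (cal. res.) and 99.5 and 99.5 (CORT), with folds of 24.8 and 20.6 (cal. res.) against 50.6 and 60.6 (CORT). Ppara had 7 sites held by all 3 groups, the most of any member, on both sides of its start. The Nr1i3 site lay 9.85 kb upstream of that gene, with Pcp4l1 as the nearest start. This site ranked at 99.2 and 93.4 (ctrl.), 95.6 and 95.7 (cal. res.) and 93.0 and 98.4 (CORT). A receptor half-site lies in its summit window, and a FOXO1 row overlapped it too.

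Hnf4a held its highest site in its own intron, 32.9 kb downstream of the gene start used here. The percentiles were 97.8 and 92.4 (ctrl.), 93.1 and 94.5 (cal. res.) and 97.7 and 99.4 (CORT). Rara followed with an intronic site at 99.0 and 85.5, 94.2 and 88.5, and 98.9 and 99.5 in the same order of groups. The highest site within the window of Thra, a thyroid hormone receptor, lay in an intron of its neighbour Nr1d1 (REV-ERB alpha), whose start was the nearest. It ranked at 99.0 and 94.0 (ctrl.), 89.8 and 85.6 (cal. res.) and 98.1 and 99.3 (CORT), so both cal. res. libraries were below the other 4.

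Nr2c2 had its single site at its own start, ranked at 96.6 and 96.9 (ctrl.), 79.3 and 86.1 (cal. res.) and 96.1 and 82.1 (CORT). Both ctrl. libraries were above the rest, by little over CORT replicate 1, and cal. res. and CORT overlapped. The estrogen receptor gene Esr1 had an intronic site at 97.1 and 87.7 (ctrl.), 90.2 and 68.3 (cal. res.) and 95.7 and 98.1 (CORT). Nr4a1 was the highest of the other receptors, with a site 7.59 kb upstream at 92.3 and 71.4, 83.3 and 81.5, and 95.1 and 92.8, and Nr4a3, Rxrg and Rarg followed at mean percentiles of 76.1, 46.2 and 43.9. The best sites of Nr5a2 and Rxra had mean percentiles of 84.8 and 83.0, and the Rxra site was the 1 of these 12 that no FOXO1 row overlapped.

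**Figure D2:**
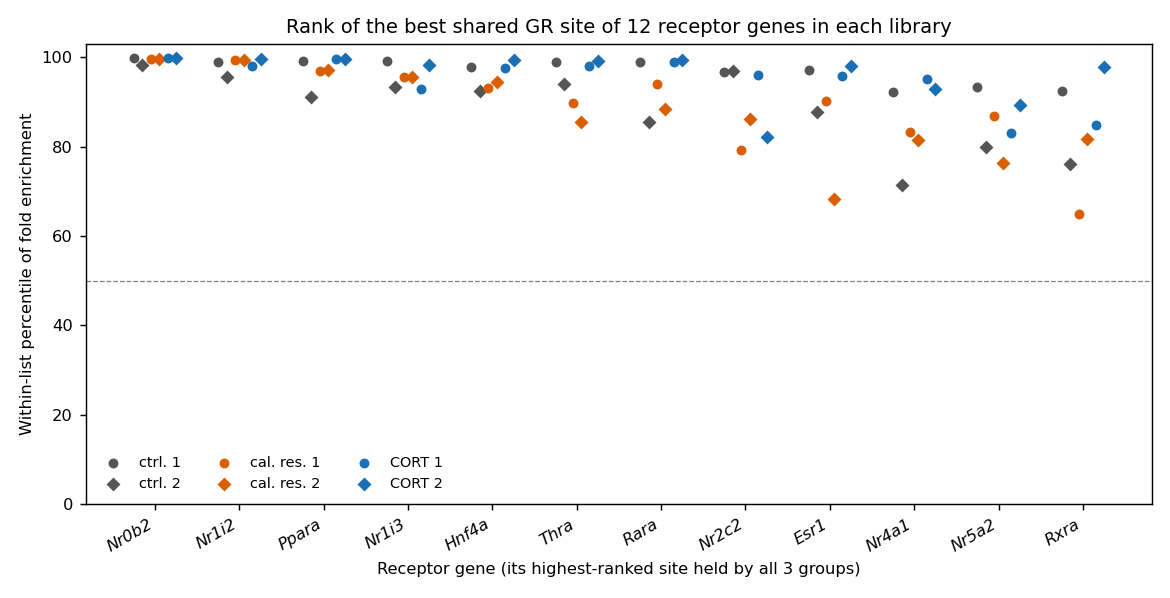
Within-list percentile of fold enrichment (vertical axis, 100 is the top of a library's own list, the dashed line is 50) of the best site held by all 3 groups of 12 receptor genes (horizontal axis), 1 point per GR library, coloured by group. Nr0b2 is above 98.2 or at it in each library, and the spread between libraries widens towards Rxra, which ranges from 64.9 to 97.8.

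The motifs in the summit windows of member sites held by all 3 groups are given beside those of all such sites. The GR half-site was in 9 of 72 windows (12.5%) against 12.3% of 8095, and the GR element in 1.39% against 3.45%. The receptor half-site was in 12 of 72 (16.7%) against 12.7%, and the FOX core in 3 of 72 (4.17%) against 3.22%. C/EBP motifs (TTGCNNAA) were in 6.94% against 10.4%, STAT motifs in 1.39% against 5.68%, and neither the HNF4 motif CAAAGTCCA nor DR1 (2 direct AGGNCA half-sites 1 base apart) was in a member window, against 1.31% and 0.568%. Motifs can overlap, such as the GR half-site within a GR element, both strands were searched, and a match describes letters, not a bound site. Mean GC content was 55.6% in the member windows and 53.6% in all.

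Sites held by all 3 groups were found near most liver-expressed receptors. Of the 332 member sites, 83 were held by ctrl., 99 by cal. res., 147 by CORT and 72 by all 3 groups (21.7%, against 15.7% of all sites), while 177 were held by no group. A site held by ctrl. was near 25 members (59.5%), against 48.6% of all genes, a site held by cal. res. near 27 (64.3%), against 47.2%, and a site held by CORT near 29 (69.0%), against 60.9%. A site held by all 3 groups was near 23 members (54.8%), against 37.9% of all genes. These 23 were 19 of the 21 liver-expressed receptors, the exceptions being Nr1h2 and Nr2f2, and 4 of the 21 other receptors, which were Rarg, Rxrg, Nr4a1 and Nr4a3. Of the coregulators, 10 of 14 had such a site, with Ncor1, a corepressor, at 3 sites.

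The 2 receptor lists thus differed by 71.4 percentage points in the share of genes with a site held by all 3 groups, with other receptors (19.05%) below the background and liver-expressed receptors (90.5%) above it. This is a description of lists chosen with earlier results of these data known, and no test was made over genes. The rank of sites held by all 3 groups is given next, with few such sites near other receptors. The median of the mean percentile was 76.5 for 67 sites near liver-expressed receptors and 48.6 for 5 near other receptors, against 73.9 for all sites of this kind. Over all member rows, the median percentile of liver-expressed minus other receptors was -4.08 and 12.9 (ctrl.), 23.9 and 5.70 (cal. res.) and 6.72 and 27.9 (CORT), so ctrl. replicate 1 went the other way. The number of rows near other receptors was 10 to 25 per library.

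**Figure D3:**
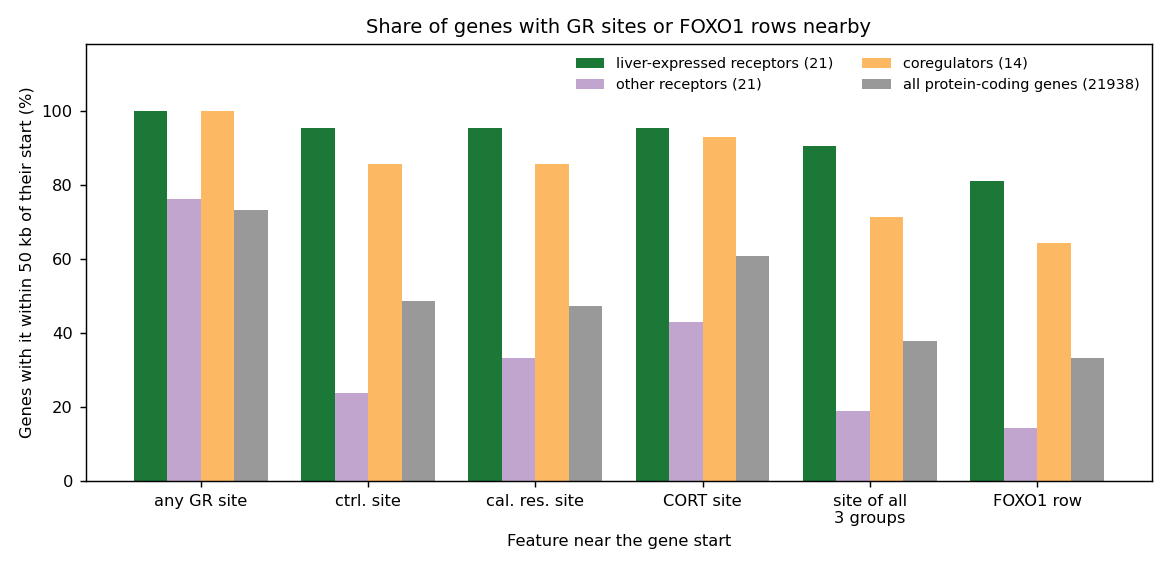
Share of genes (vertical axis, percent) with the feature named on the horizontal axis within 50 kb of their start, for liver-expressed receptors, other receptors, coregulators and all protein-coding genes. For a site held by all 3 groups the bars are 90.5%, 19.05%, 71.4% and 37.9%, so other receptors are below the bar of all genes and the other 2 lists above it.

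At the gene starts themselves the lists were also apart. A GR site was centred within 1 kb of the start of 22 members (52.4%), against 45.7% of all genes, and a site held by all 3 groups of 12 (28.6%), against 12.7%. The 12 were Esrra, Nr0b2, Nr1i2, Nr1i3, Nr2c1, Nr2c2, Nr4a3, Nr5a2, Ppara, Ppard, Rxrb and Thrb. Nr4a3 was the 1 gene of this group among the other receptors. Thra, Rara, Nr1h4, Rxra and Nr2f2 were the liver-expressed receptors with no GR site centred within 1 kb of their annotated start. This counts centres only, and only around the gene start, so other annotated transcript starts of a gene are left out. Sites held by all 3 groups also lay within 1 kb of such other starts. They included sites downstream of the gene start of Hnf4a (40.3 kb), Nr1h3 (7.91 kb), Rara (9.8 kb), Rarg (10.3 kb) and Rxrg (19.8 kb). The Nr1h4 and Rxra starts were each covered by a long site held by all 3 groups, centred 1.06 and 1.22 kb away. The coregulators had a GR site centred within 1 kb of the start for 13 of 14 genes and a site held by all 3 groups for 4.

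**Figure D4:**
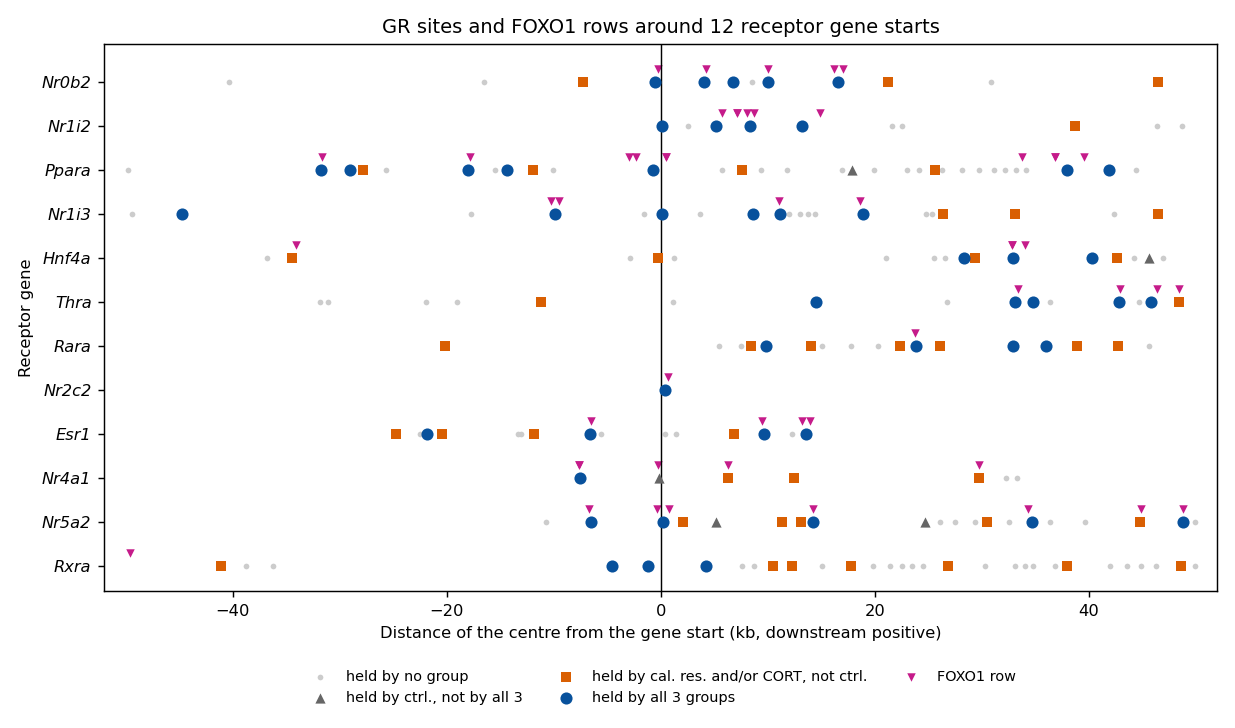
Position of GR sites and FOXO1 rows around the starts of 12 receptor genes (horizontal axis, kb from the gene start, downstream positive), with marker shape and colour for the groups that held the site. Nr2c2 shows 1 site, held by all 3 groups, and Rxra shows 30, of which 3 were held by all 3 groups and 1 FOXO1 row lies near the edge of the window.

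The number of GR regions near members followed the length of the lists. The ctrl. libraries had 232 and 109 regions (170.5 ± 87.0, SD, n = 2). The cal. res. libraries had 174 and 146 (160 ± 19.8, SD, n = 2), and the CORT libraries 220 and 284 (252 ± 45.3, SD, n = 2). Both CORT libraries were above both cal. res. libraries, and the ctrl. pair spanned the cal. res. values. The ratio of geometric means was 1.002 for cal. res. against ctrl. (exact permutation test, two-sided, p = 1), 1.57 for CORT against ctrl. (exact p = 0.667) and 0.638 for cal. res. against CORT (exact p = 0.3333). With 2 libraries against 2 the smallest p this test can give is 0.3333, so no difference could pass the usual threshold.

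As a share of each list, regions near members were 0.640% and 0.875% (ctrl.), 0.766% and 0.779% (cal. res.) and 0.746% and 0.726% (CORT), and ctrl. again spanned both other groups. Within library names of 1 style, ctrl. replicate 2 had 109 regions against 174 and 146 (cal. res.), and ctrl. replicate 1 had 232 against 220 and 284 (CORT). When each list was reduced to its 12458 regions of smallest p-value, the counts were 82 and 109 (ctrl.), 106 in cal. res. replicate 1, and 97 and 105 (CORT), with cal. res. replicate 2 between the CORT libraries. The order of cal. res. and CORT was then turned, at a log2 difference of 0.04 where it had been -0.65. In these equal lists ctrl. held 64 member sites, cal. res. 70, CORT 72 and all 3 groups 51.

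**Figure D5:**
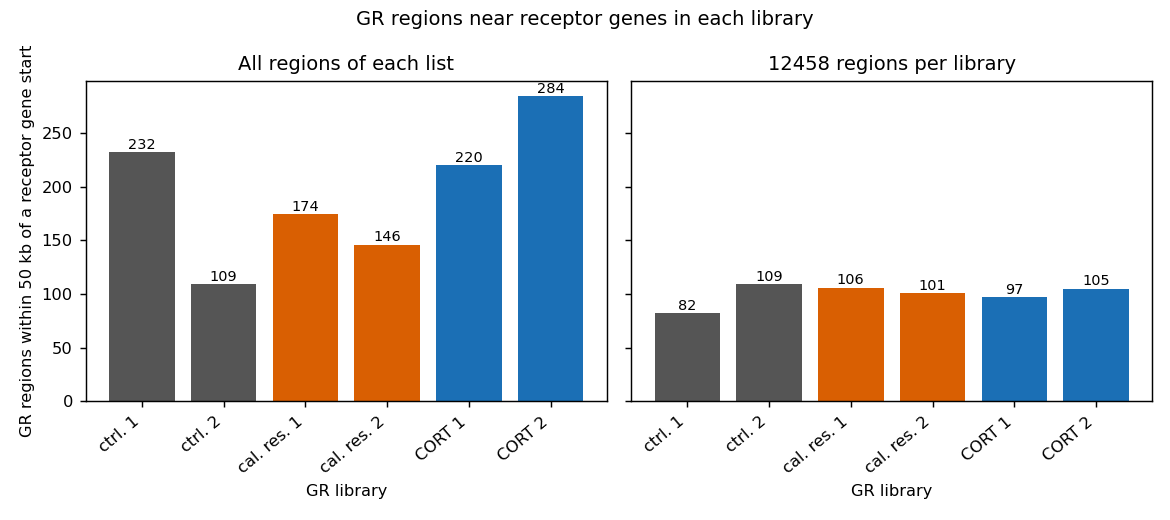
Number of GR regions within 50 kb of a receptor gene start (vertical axis) in each GR library (horizontal axis), for the whole lists on the left and for 12458 regions per library on the right. The bars range from 109 to 284 on the left and from 82 to 109 on the right.

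Sites held by cal. res. and not by ctrl. were near 18 members (42.9%), against 27.1% of all genes, and numbered 27. Sites held by CORT and not by ctrl. were near 24 members (57.1%), against 48.9%, and numbered 67. Counted as a share of sites, both were below the background. For cal. res. the share was 8.13% of member sites against 11.5% of all sites, and for CORT 20.2% against 24.35%. Both comparisons share the ctrl. libraries. In 25 of the 27 and 50 of the 67 sites, ctrl. replicate 1 had a peak and the call rested on the short list of ctrl. replicate 2. Without ctrl. replicate 2 the counts were 2 and 17.

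With no peak in either ctrl. library, cal. res. held a site near 1 member (2.38%), against 2.56% of all genes, and CORT near 12 members (28.6%), against 15.2%. The single cal. res. site lay in an Nr4a1 intron 6.28 kb from the start, at chr15:101260292-101260796, and its summit window above holds a receptor half-site. Its folds were 10.3 and 3.82 (cal. res.), with percentiles of 82.3 and 22.9, CORT replicate 2 also had a peak at a fold of 3.76, and a FOXO1 row overlapped it. The 11 liver-expressed receptors and 1 other receptor with such a CORT site had 15 of these sites. They were 4.52% of member sites, against 4.28% of all sites. FOXO1 overlapped 0 of the 15, and such overlap was rare over all sites of this kind too (4.18%). The highest of the 15 was 11.9 kb upstream of Esr1, at percentiles of 76.3 and 84.5 (CORT), and cal. res. replicate 1 had a peak there at 76.7. A pair of sites in the window of Nr1h3 (LXR alpha, the oxysterol receptor) followed, at 58.9 and 68.3 and at 74.6 and 19.9, then an Esr1 intron at 58.1 and 34.7 and a Thrb intron at 52.7 and 34.7, and these 4 sites had a peak in no ctrl. or cal. res. library. The Nr1h3 pair lay at neighbouring genes. The first was 39.95 kb upstream with Ddb2 as the nearest start, and the second 41.75 kb downstream in a Madd intron.

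Sites held by cal. res. alone among the groups were near 4 members (9.52%), against 6.71% of all genes. They numbered 5, which was 1.51% of member sites against 2.39% of all sites. They were the Nr4a1 intron above, a second Nr4a1 site 12.4 kb downstream of the start, and sites near Nr1h4, Nr5a2 and Nr2f2. In each of the 4 others, ctrl. replicate 1 and 1 CORT library also had a peak. At the second Nr4a1 site the percentiles were 42.9 in ctrl. replicate 1, 87.1 and 64.6 (cal. res.) and 52.7 in CORT replicate 1. The sites near Nr5a2 and Nr2f2 went the other way. There ctrl. replicate 1 ranked at 80.1 against 15.9 and 35.2 (cal. res.), and at 57.3 against 26.3 and 21.4. Near Nr1h4 it ranked at 71.8, between the cal. res. values of 61.5 and 73.6.

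Sites held by ctrl. and not by cal. res. were near 9 members (21.4%), against 23.6%, a share near the background. The highest was in the window of Nr2f6, an orphan receptor, at a start of the neighbouring gene Ocel1, with percentiles of 86.2 and 72.1 (ctrl.) and 68.6 and 60.03 (CORT) and no peak in either cal. res. library. At an Nr5a2 intron (chr1:136955015-136955642) and at the Nr4a1 start (chr15:101253753-101254368), cal. res. replicate 1 had a peak, so these sites were missing from 1 cal. res. library. They were also missing from CORT replicate 2, while CORT replicate 1 ranked at 94.25 and 48.6.

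At the 72 member sites held by all 3 groups, the counts of sites by the order of the groups in rank were near the background of all 8097 such sites. Both cal. res. libraries were above the other 4 at 1 site (1.39%), against 3.33% of all sites, and below them at 10 (13.9%), against 15.5%. Both CORT libraries were above the other 4 at 14 sites (19.4%), against 20.1%, and below them at 0, against 1.83%. The 1 site above in cal. res. was 6.73 kb downstream of the Nr0b2 start, at 59.9 and 63.2 (cal. res.) against 58.1 and 58.0 (ctrl.) and 27.8 and 58.4 (CORT), a gap of 1.53 points.

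The widest gap of these was at the start of Rxrb, a retinoid X receptor. Its site ranked at 50.8 and 54.1 (ctrl.), 22.1 and 22.9 (cal. res.) and 66.9 and 66.4 (CORT), so the 3 groups did not overlap and cal. res. was 28.0 points below the nearest other library. At a site 30.4 kb upstream of Esrra, an estrogen-related receptor of mitochondrial gene control, the percentiles were 58.8 and 55.6 (ctrl.), 29.4 and 46.8 (cal. res.) and 84.1 and 92.8 (CORT), again without overlap. The nearest start to that site was the one of Gpr137. The Ppard start ranked at 15.9 and 42.7 (ctrl.), 32.3 and 6.89 (cal. res.) and 66.5 and 58.0 (CORT), and a Rara promoter site at 59.8 and 18.5, 52.3 and 43.5, and 78.3 and 83.7. At the Ppard and Rara sites the CORT pair was above the other 4 libraries while ctrl. and cal. res. overlapped. These 4 sites were picked after their values were seen.

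FOXO1 rows were found near 20 members (47.6%), against 33.3% of all genes. They were near 17 of 21 liver-expressed receptors and 3 of 21 other receptors (14.3%), the latter being the 3 NR4A genes Nr4a1, Nr4a2 and Nr4a3, and near 9 of 14 coregulators. Of the 8394 FOXO1 rows, 68 were near members, and each of these 68 overlapped a GR site, against 93.5% of all FOXO1 rows. Their median percentile in the FOXO1 list was 50.5, near the middle of that list. Nr1h2, Rxrb, Nr2f2 and Nr2f6 were the liver-expressed receptors with no FOXO1 row.

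Ppara had the most FOXO1 rows with 10, followed by Nr5a2 with 7, Nr1i2 with 6 and Nr0b2 and Nr4a1 with 5 each. The highest row was in a Ppara intron 36.8 kb from the start, at chr15:85771211-85772389, with a fold of 17.9 (percentile 97.6). The next was at the Nr0b2 start with a fold of 14.2 (95.1), followed by the Nr1i3 window at the start of Apoa2 with 13.7 (94.5), an Esr1 intron with 13.1 (93.6) and a second Ppara intron with 11.5 (91.0). The FOXO1 summit window at Apoa2, printed above, holds the FOX core. It was the only window of these 5 rows that did, and the others held none of the motifs searched. Rxra had 1 FOXO1 row and 30 GR sites, of which FOXO1 overlapped 0, against 13.9% of all GR sites. Of these 30 sites, ctrl. held 3, cal. res. 4 and CORT 10. Over all sites held by no group, FOXO1 overlapped 2.39%. In the FOXO1 summit windows the FOX core was in 10 of 68 near members (14.7%), against 13.8% of 8346, and the receptor half-site in 19.1% against 14.3%.

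A site held by all 3 groups that FOXO1 also overlapped was near 18 members (42.9%), against 20.9% of all genes, 16 of them liver-expressed. FOXO1 overlapped 40 of the 72 member sites held by all 3 groups (55.6%), against 50.7% of all such sites, a difference of 4.87 points. It was 1.19 without ctrl. replicate 2, and it turned to -3.10 when each list kept as many regions as the shortest and to -0.33 with the stronger 50% of the FOXO1 regions, so no excess over all sites is read from it. It overlapped 3 of the 27 sites held by cal. res. and not ctrl. (11.1%), against 26.0% of all such sites, and 5 of the 67 held by CORT and not ctrl. (7.46%), against 14.5%. The median of the mean percentile was 79.6 with FOXO1 and 67.4 without among member sites held by all 3 groups, and 82.9 and 64.5 among all of them. By library, FOXO1 overlapped 26.3% and 49.5% of the member regions in ctrl., 43.1% and 44.5% (cal. res.) and 30% and 19.4% (CORT). The shortest list had the highest share, and cal. res. was 19.1 points above CORT (exact permutation test, p = 0.3333, the smallest it can give) and 5.90 points above ctrl. (exact p = 1).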

How the data were processed

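ChIP-seq libraries were made from mouse liver, 2 for GR in each of 3 groups and 2 for FOXO1. The authors aligned reads to mm10 with BWA, removed duplicates and multimapping reads with Picard and Bamtools, called peaks on paired ends with MACS2 and filtered blacklisted regions with bedtools. Whether an input control was used is not given in the sources used here. The deposited lists hold, per peak, a fold enrichment (a ratio) and a -log10 p-value and q-value. FOXO1 libraries were merged by the authors before calling, at a stricter q-value than GR.

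Groups were taken from the labels. Overlapping peaks of the 6 GR lists (at least 1 bp) were merged into sites, assigned within 50 kb of gene starts of GENCODE M21, and ranked by within-list percentile of fold enrichment, the highest row standing for a site. A group held a site where both libraries had a peak. The study also counted regions with enough reads, and read counts were not used here. The libraries' replicates are labelled as separate samples without naming animals, so p-values measure the spread between these samples. Member regions were compared by two-sided exact permutation tests over libraries, and shares of genes were given beside all protein-coding genes without a test.

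Members and lists were chosen with earlier results of these data known. Sites were named by rule: the 12 members with the highest best site held by all 3 groups, the 5 highest sites held by cal. res. or CORT without a ctrl. peak, the 5 held by cal. res. only, the 3 highest held by ctrl. and not cal. res., the 5 highest FOXO1 rows and the best sites of other receptors. Motifs were searched in the summit base and 50 bases on either side. Code was tested on simulated data and run in Python 3.11.15 with NumPy 2.4.6, pandas 2.3.3, SciPy 1.17.1, pysam 0.24.0 and matplotlib 3.10.9. Alternatives were the window, gene start, nearest gene, q-value, list length, definition of a held site, ranking column, overlap, FOXO1 list, receptor list, replicate block and leaving out each library.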

Additional observations from a re-analysis of the deposited data

How the results depend on the processing

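The log2 difference in member regions between cal. res. and ctrl. was 0.00 and changed sign with small settings, to -0.036 with a 25 kb window, -0.085 with 100 kb, -0.0077 with any transcript start and -0.0012 with the nearest gene, and ranged from -0.54 to 0.55 when 1 library was left out. For CORT against ctrl. it was 0.65 and ranged from 0.11 to 1.20 without a library, and was 0.094 with equal regions. Between cal. res. and CORT it was -0.65, and 0.036 when each list kept as many regions as the shortest. The labels do not say that replicate numbers mark a shared animal or day, and under the replicate block the differences were 0.00, 0.65 for CORT against ctrl. and -0.65, with exact p-values of 1, 1 and 0.5, the last being the smallest possible. Sites held by cal. res. and not ctrl. numbered 27, and 14 at 25 kb, 45 at 100 kb, 16 with equal regions and, with 1 library left out, 2 (ctrl. replicate 2) to 52 (cal. res. replicate 2). Sites held by CORT and not ctrl. numbered 67, and 38 at 25 kb, 117 at 100 kb, 42 by nearest gene, 18 with equal regions, 117 where either library sufficed and, with 1 library left out, 17 (ctrl. replicate 2) to 190 (CORT replicate 1). The gap between receptor lists in the share with a FOXO1 row was 66.7 points, and 47.6 at 25 kb and with any transcript start. The FOXO1 overlap of member sites less that of all sites was 4.87 points, and changed sign to -3.10 with equal regions and -0.33 with the stronger 50% of the FOXO1 regions. The gap between lists in percentile was 12.2 points and ranged from 4.27 with the other receptor list to 15.4 without ctrl. replicate 1. The other results, CORT against ctrl. in regions, members with a site held by all 3 groups or with a FOXO1 row, and the gap between lists in sites held by all 3 groups, kept their direction, and their counts stayed within 1.5 times, in every alternative run. List length, with unknown read depth, limits counts of sites held by 1 group, and the cause of the changes was not tested.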
